A study of Mus musculus with 10 samples.

Results

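The tumour necrosis factor (TNF) superfamily genes were followed in cultured mouse spermatogonial stem cells by RNA sequencing. They were taken as every gene of the deposited expression matrix whose symbol begins with Tnfsf or Tnfrsf and a number, together with Tnf, Lta, Ltb, Ltbr, Fas, Fasl, Cd40, Cd40lg, Cd27 and Cd70. The rule uses names alone and gave 41 of 21969 genes, 17 ligands and 24 receptors. Among the receptors, 5 carry a death domain, 15 bind TRAF adapter proteins without one, and 4 were grouped as decoys. All libraries came from DBA/2 mice. Week 0 was adult testis cells selected with magnetic beads and an antibody to the surface protein CD9. Weeks 1, 2 and 3 were such cells kept for that time in an Iscove's-based medium with FGF2 at 10 ng/ml, GDNF at 15 ng/ml and 1% fetal bovine serum. GS cells, established cultures of spermatogonial stem cells, were grown in the same medium. Each of the 5 groups had 2 libraries, and the labels leave unsaid whether they are separate animals or cultures. The p-values therefore cover only the spread between these libraries. All cultured groups received the growth factors and none was grown without them. The sources used here do not say whether feeder cells were present.

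TNF family ligands are mostly trimeric membrane proteins, some of which are released by proteases, and they act by clustering receptors that have cysteine-rich outer domains. Receptors with a death domain can recruit FADD or TRADD and start caspase-8 or RIP kinase signalling, whereas the others bind TRAF proteins and lead mainly to NF-kB and MAP kinase activity. Decoy receptors bind a ligand and pass on no signal. In the testis, germ cells and interstitial macrophages are known sources of TNF, and the FAS pathway is known for its part in germ cell death.

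The steps of the FPKM values correspond to about 10300000 to 20700000 fragments a library. A transcript of 2000 nucleotides at FPKM 1 then had 18.5 to 37.3 fragments. As the normalization is not given, the first range may be a scaled total rather than the fragments sequenced. FPKM is a fragment count scaled for transcript length and library size, so levels of different genes can be compared. Pearson's r between the 2 libraries of each group, taken across genes that are not independent replicates, was 0.987 to 0.993. Markers of undifferentiated spermatogonia (16 genes) were found in all libraries and none was listed at 0. Their summed FPKM was 420 to 434 in week 0, 810 to 822 in week 1 and 1388 to 1548 in the 6 later libraries. Week 0 also held much RNA of other testis cells, with 8 spermatid markers at a summed FPKM of 23357 to 25107 against 6.43 to 172 in the cultured libraries. Fibroblast and matrix markers (20 genes) summed to 1209 to 1413 in week 0, 14114 to 14652 in week 1 and 522 to 1124 later. Macrophage markers (15 genes) summed to 495 to 548 in week 0 and 35.6 to 126 in culture. In these bulk samples, fewer cells of a type and less RNA per cell cannot be told apart.

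Of the 41 genes, 29 reached FPKM 1 in at least 2 libraries and could be tested. These were 10 ligands, all 5 death domain receptors, all 4 decoys and 10 TRAF-binding receptors. Receptors were detected more widely than ligands: at FPKM 1 or more in both libraries stood 3 ligands and 10 receptors at week 0, 6 and 16 in week 1, 3 and 13 in week 2, 2 and 13 in week 3, and 4 and 14 in GS cells. The group with the highest mean was week 1 for 18 of the 29, GS cells for 5, week 0 for 3, week 2 for 2 and week 3 for 1. These counts of highest means were not made over all genes. In 17 of the 29, both week 1 libraries lay above the other 8, which held for 17.1% of all 15671 genes tested. Tnfsf11, Tnfsf15 and Tnfsf18 are among the 17 and passed the limit only with week 1. Tnf and Tnfrsf13c passed through week 0 alone and Cd70 through week 3 alone, so the limit fixed their highest group too.

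**Figure D1:**
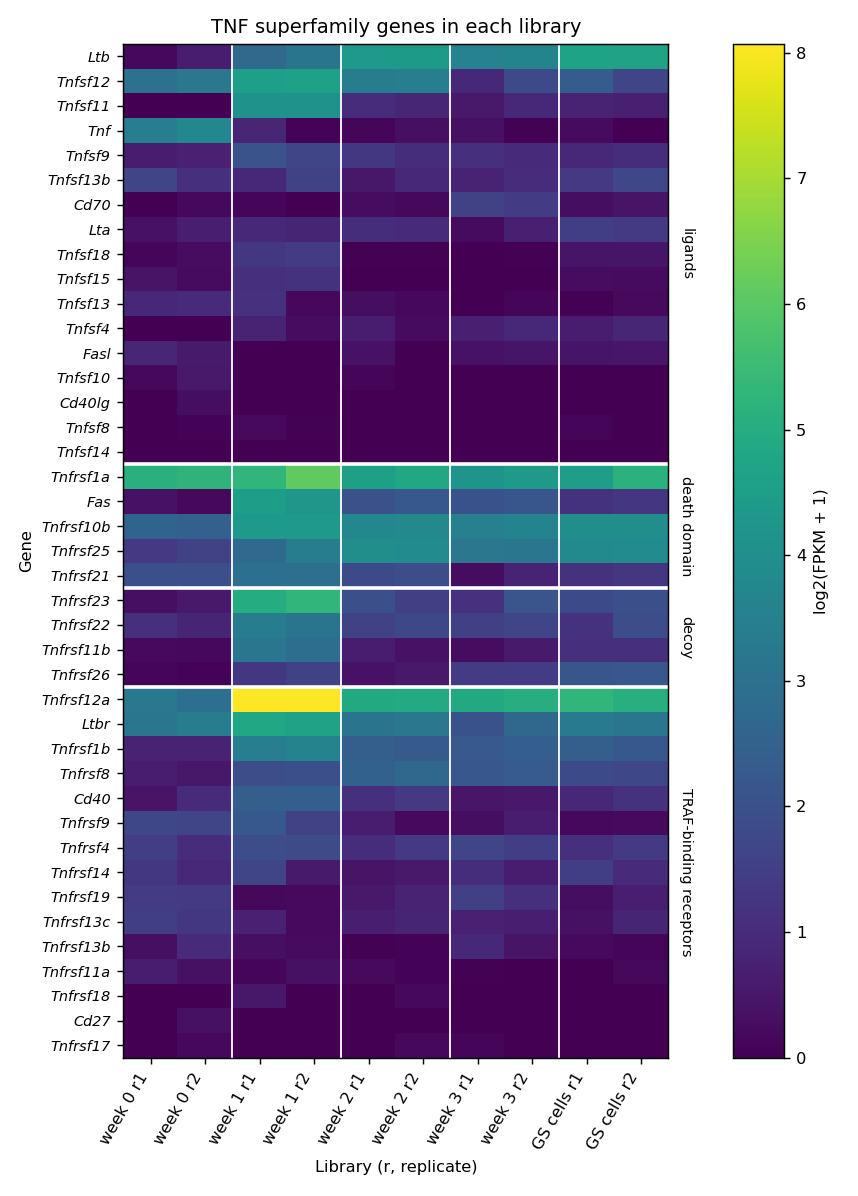
Level of each of the 41 genes (vertical axis, grouped by role) in each of the 10 libraries (horizontal axis), as log2(FPKM + 1) in color. The brightest cells are Tnfrsf12a in both week 1 libraries (264 and 268 FPKM) and Tnfsf14 is at 0 in all 10.

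The other 12 genes stayed below the limit. They were the ligands Fasl, Cd40lg, Tnfsf4 (OX40 ligand), Tnfsf8 (CD30 ligand), Tnfsf10 (TRAIL), Tnfsf13 (APRIL) and Tnfsf14 (LIGHT), and the receptors Cd27, Tnfrsf11a (RANK), Tnfrsf13b (TACI), Tnfrsf17 (BCMA) and Tnfrsf18 (GITR). Tnfsf13 reached 1.22 FPKM in 1 week 1 library, and none of the others exceeded 0.963 in any library. The level of Tnfsf13 is uncertain, since 57.3% of its 50-base stretches are shared with the read-through gene Tnfsfm13. Tnfsf14 was listed at 0 in all 10 libraries, Cd27 and Cd40lg in 9, Tnfrsf18 in 8, Tnfrsf17 and Tnfsf10 in 7 and Tnfsf8 in 5. Fasl, the ligand of FAS, was at 0.835 and 0.501 FPKM at week 0, at 0 in both week 1 libraries and between 0 and 0.398 in the later ones. Tnfsf4 was at 0 in both week 0 libraries and between 0.181 and 0.904 in culture. Tnfrsf11a had 0.534 and 0.295 FPKM at week 0 and 0 to 0.276 in culture, and Tnfrsf13b had 0.0274 to 0.963 over all libraries. T and NK cell markers (13 genes) summed to 49.9 to 61.9 FPKM at week 0 and 10.3 to 20.9 in culture, with Ncr1 and Nkg7 listed at 0 in every library. Of the 5 that could be tested, 1 rose and 2 fell at week 1 (median 0.47), and 2 were higher and 2 lower in GS cells than at week 0 (median 0.52); the part of these markers in the low values of Fasl, Cd40lg and Cd27 was not tested.

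Between week 0 and week 1 the family moved mostly up. Of the 29 tested genes 20 rose and 3 fell, which is 79.3% called, and 80.3% of all genes tested were called in this comparison (36.3% higher and 44% lower). The median log2 fold change on the log2(FPKM + 1) scale was 1.34 in the family and -0.14 over all genes. On quantile normalized values the family had 23 rises and 1 fall, while all genes had 7772 rises and 5223 falls against 5682 and 6895 on the deposited values, and their median moved to 0.38. The family's median exceeded that of all genes by 1.48 on the deposited values, 1.3 after quantile normalization and 1.22 after rescaling to a common sum. Because Tnfsf15 and Tnfsf18 passed the limit through week 1 alone, and Tnf and Tnfrsf13c through week 0 alone, these 4 had to differ, and the counts over tested genes do not stand for the whole family. Tnfsf11 reached FPKM 1 in both week 1 libraries and otherwise only in week 2 replicate 1, so it too passed only with week 1. Without either week 0 library 27 genes were tested and 1 fell.

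Between week 1 and week 2 the family moved mostly down. Of the 29 genes 19 fell and 4 rose, 79.3% called beside 55.6% of all genes (28.2% higher and 27.4% lower). Among the falls, Tnfsf15 and Tnfsf18 passed the limit through week 1 alone and so had to lie lower at week 2. Tnfsf11, which also fell, passed only with week 1. The counts over tested genes therefore do not stand for the whole family. The median was -1.02 in the family and 0.03 over all genes. For all genes the split was 4419 higher and 4300 lower on the deposited values, 5785 and 3577 after quantile normalization (median 0.17) and 6533 and 3301 after rescaling to a common sum (median 0.25). Consecutive comparisons share a group, so a rise into week 1 and a fall out of it are not independent. From week 2 to week 3, 3 genes rose and 6 fell, 31% called beside 21.3% of all genes (10.6% higher and 10.7% lower). The calls of Tnfrsf26, Tnfsf12 and Tnfrsf21 held in every alternative analysis. Cd70 passed the limit through week 3 alone, so it had to differ there and was not tested without either week 3 library. The 6 falls became 2 without week 2 replicate 1, week 2 replicate 2 or week 3 replicate 1, and the 3 rises became 1 without week 3 replicate 1.

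GS cells compared with week 3 had 9 genes higher and 4 lower, 44.8% called beside 22.5% of all genes (11.7% higher and 10.8% lower). The calls of Lta, Tnfrsf26 and Fas held in every alternative, and that of Cd70 in those in which it was tested, which leave out neither week 3 library. Cd70 passed the limit through week 3 alone, so it had to be lower in GS cells. Lta, among the higher genes, passed only with the GS cell libraries. The 9 higher genes became 3 without week 3 replicate 1 or GS cells replicate 1 and 4 without GS cells replicate 2. The 4 lower genes became 1 without week 3 replicate 1 and 2 without week 3 replicate 2 or GS cells replicate 1. GS cells compared with week 0 had 14 higher and 6 lower, 69% called beside 80.6% of all genes (34.7% higher and 45.9% lower). This split was 22 and 1 after quantile normalization and 17 and 5 after rescaling to a common sum, and the median of all genes was -0.21, 0.45 and 0.19 under the 3 scalings. The medians of the family were 0.30, 1.11 and 0.50. All genes gave 5437 higher and 7196 lower on the deposited values, 8039 and 5128 after quantile normalization and 7034 and 5837 after rescaling. Tnf and Tnfrsf13c passed the limit through week 0 alone, so on the deposited values they had to be lower in GS cells than at week 0. Lta, again among the higher genes, passed only with GS cells. Both comparisons use the same GS cell libraries.

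**Figure D2:**
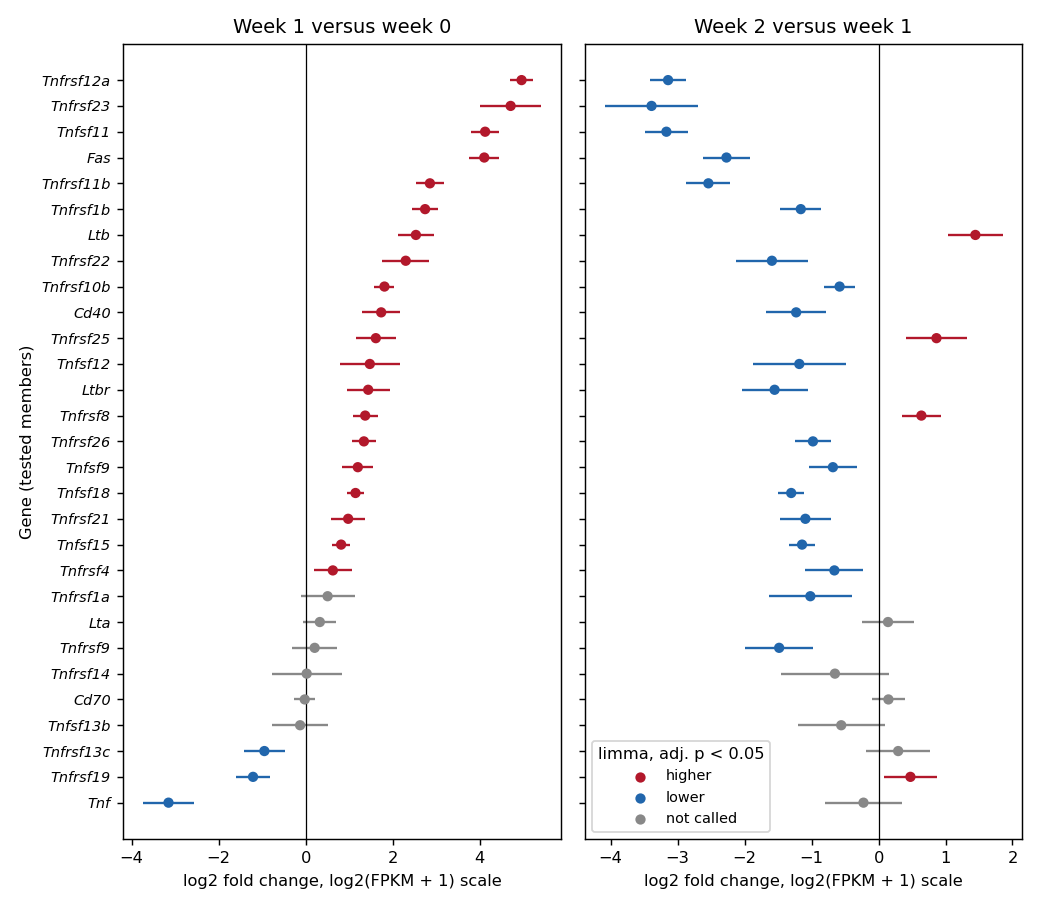
Log2 fold change on the log2(FPKM + 1) scale (horizontal axes, which differ between panels) of the 29 tested genes (vertical axis) for week 1 against week 0 and week 2 against week 1, with bars for the 95% interval of the limma fit and red, blue and gray for higher, lower and not called. At week 1 most points lie to the right, from Tnfrsf12a at 4.96 down to Tnf at -3.15, and at week 2 the 4 higher genes are Ltb, Tnfrsf25, Tnfrsf8 and Tnfrsf19.

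Among the ligands, the neighbours Ltb, Tnf and Lta on chromosome 17 took different courses. Ltb (lymphotoxin beta, ENSMUSG00000024399.5, GRCm38 chromosome 17, 35194439 to 35196320, plus strand) anchors lymphotoxin alpha in the membrane for signalling through Ltbr. It was at 0.137 and 0.562 FPKM at week 0, 5.85 and 7.71 in week 1, 19.8 and 20.3 in week 2, 10.9 and 11.5 in week 3, and 24.9 and 23.9 in GS cells. No 2 groups overlapped, and GS cells were highest. Ltb rose at week 1 (limma log2 fold change 2.53, SE 0.18, adjusted p = 2.112e-06) and again at week 2 (1.45, adjusted p = 0.0002376). Its fall at week 3 (-0.79, adjusted p = 0.01655) lost the call without any single library of weeks 2 or 3 (adjusted p = 0.0547 to 0.0843). In GS cells Ltb was 1.06 above week 3 (limma, adjusted p = 0.005122; 0.093 with a pseudocount of 0.1) and 4.25 above week 0 (adjusted p = 8.472e-08). Between weeks 1 and 2, 14 of 16 markers of undifferentiated spermatogonia rose and 0 fell, and all 20 fibroblast and matrix markers fell; their part in the change of Ltb was not tested.

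Tnf (ENSMUSG00000024401.14, chromosome 17, 35199381 to 35202007, minus strand), the founding cytokine of the family, was the tested ligand that went the other way. The week 0 libraries had 9.94 and 12.7 FPKM, those of week 1 had 0.807 and 0.0498, and the 6 later libraries had 0 to 0.273. No cultured library came near week 0. Tnf fell at week 1 by 3.15 on the log2 scale (limma, SE 0.25, adjusted p = 5.177e-06) and did not pass the test in any later comparison of neighbouring groups, with differences of -0.23 to -0.04. It passed the limit of FPKM 1 through week 0 alone, so its other libraries had to lie lower. At week 1, 8 of 12 tested macrophage markers fell and 2 rose, and all 8 spermatid markers fell; their part in the fall of Tnf was not tested. Lta (lymphotoxin alpha, chromosome 17, 35203165 to 35205351, minus strand), which can bind the TNF receptors as a trimer, was low throughout. It had 0.327 and 0.602 FPKM at week 0, 0.862 and 0.797 in week 1, 1.09 and 0.944 in week 2, 0.175 and 0.628 in week 3, and 1.85 and 1.57 in GS cells. GS cells were above every other library and exceeded week 3 by 0.97 (limma, adjusted p = 0.005656) and week 0 by 0.89 (adjusted p = 0.001058). Outside GS cells only week 2 replicate 1 reached FPKM 1, so Lta passed the limit only with the GS cell libraries.

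The proximal promoters of Ltb and Tnf, and those of Fas and Tnfrsf12a, which were among the genes with the largest rises at week 1, are shown to set the expression beside the sequence. They are the 250 bases before the start site of the gene in RefSeq (GRCm38.p6), read 5' to 3' on the strand of the gene, with motif matches in capitals. For Ltb and Tnfrsf12a this start lies inside the gene coordinates given in this text, which begin at 35194439 and 23677468 on the gene's strand. Their windows therefore partly overlap those genes. The coordinates are chr17:35194257-35194506 (plus) for Ltb, chr17:35202008-35202257 (minus) for Tnf, chr19:34290409-34290658 (plus) for Fas and chr17:23677450-23677699 (minus) for Tnfrsf12a.
Ltb: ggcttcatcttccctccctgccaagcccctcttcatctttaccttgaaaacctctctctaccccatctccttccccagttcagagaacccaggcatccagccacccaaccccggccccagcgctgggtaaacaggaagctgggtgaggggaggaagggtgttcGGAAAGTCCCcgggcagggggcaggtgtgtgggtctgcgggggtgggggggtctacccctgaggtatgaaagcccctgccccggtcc
Tnf: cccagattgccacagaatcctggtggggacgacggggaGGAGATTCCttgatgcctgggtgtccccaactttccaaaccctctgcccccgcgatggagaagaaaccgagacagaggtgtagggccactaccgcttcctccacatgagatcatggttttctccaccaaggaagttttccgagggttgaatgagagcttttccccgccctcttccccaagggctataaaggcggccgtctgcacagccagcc
Fas: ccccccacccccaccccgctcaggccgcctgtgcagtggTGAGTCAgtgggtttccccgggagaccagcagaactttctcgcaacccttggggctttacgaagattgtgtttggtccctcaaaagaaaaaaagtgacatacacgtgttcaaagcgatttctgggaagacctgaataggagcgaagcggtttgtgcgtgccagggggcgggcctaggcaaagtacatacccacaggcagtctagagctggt
Tnfrsf12a: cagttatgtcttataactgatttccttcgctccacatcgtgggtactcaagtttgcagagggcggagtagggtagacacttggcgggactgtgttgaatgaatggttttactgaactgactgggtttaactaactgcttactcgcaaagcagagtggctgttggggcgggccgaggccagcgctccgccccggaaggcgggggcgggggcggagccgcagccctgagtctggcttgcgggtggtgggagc
Matches of the NF-kB consensus, of its short core GGAANNNCC and of the AP-1 motif TGANTCA were sought on both strands. In Ltb a consensus match and a short core match overlap and end 78 and 79 bases before the RefSeq start, in Tnf a short core match ends 204 bases before it, and in Fas an AP-1 match ends 205 bases before it. The Tnfrsf12a window held none of the 3 motifs. Promoters were found for 31 of the 41 genes, 35 in all. The consensus was in 3 of the 35 (8.57%; Ltb, Tnfrsf8 and Tnfrsf9) and in 3.9% of the 32851 promoters of the table. The short core was in 17.1% of family promoters and 15.7% of all, and the AP-1 motif, which reads the same on both strands and was added after seeing the data, in 17.1% and 6.75%. These are letter matches within a short window and not measured binding.

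Other ligands peaked at week 1. Tnfsf12 (TWEAK, chromosome 11, 69686250 to 69695849, minus strand), the ligand of Tnfrsf12a, was at 7.24 and 8.11 FPKM at week 0, 22.4 and 23.8 in week 1, 9.36 and 9.86 in week 2, 0.862 and 2.47 in week 3, and 4.09 and 2.199 in GS cells. It rose at week 1 (limma log2 fold change 1.48, SE 0.30, adjusted p = 0.001922) and fell at week 2 (-1.18, adjusted p = 0.01051) and week 3 (-2.06, adjusted p = 0.003021). GS cells lay 1.10 below week 0 on the log2 scale (limma, 95% interval -1.80 to -0.41), a call lost without GS cells replicate 2 (-0.77, adjusted p = 0.0676) and under both other scalings. Levels of Tnfsf12 are uncertain, since 46.8% of its 50-base stretches are shared with the read-through gene Tnfsfm13, which spans Tnfsf12 and Tnfsf13 and had group means of 0.105 to 2.61 FPKM.

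Tnfsf11 (RANKL, chromosome 14, 78277445 to 78308043, minus strand), which drives osteoclast formation through RANK, was listed at 0 in both week 0 libraries. It had 16.6 and 16.3 FPKM at week 1, 1.05 and 0.840 in week 2, 0.473 and 0.911 in week 3, and 0.723 and 0.652 in GS cells. Week 1 stood above all other libraries by more than the spread within any group. It rose at week 1 (limma log2 fold change 4.13, SE 0.14, adjusted p = 2.272e-08) and fell by 3.17 on the log2 scale at week 2 (adjusted p = 1.613e-06). Outside week 1 only week 2 replicate 1 reached FPKM 1, so Tnfsf11 passed the limit only with the week 1 libraries.

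Tnfsf9 (4-1BB ligand) had 0.532 and 0.654 FPKM at week 0 and 3.19 and 2.19 in week 1 (limma log2 fold change 1.20, adjusted p = 0.000118), and 0.871 to 1.48 later. Its exons overlap those of the antisense gene Gm11110, and the sources used here do not say whether the counting used strand. Tnfsf18 (GITR ligand) went from 0.104 and 0.212 to 1.48 and 1.65 FPKM and Tnfsf15 (TL1A) from 0.338 and 0.176 to 1.161 and 1.26. Both were at 0 to 0.0399 in weeks 2 and 3. In GS cells Tnfsf18 had 0.382 and 0.370 FPKM and Tnfsf15 0.211 and 0.169. Tnfsf18 was called higher in GS cells than at week 3 (limma, 0.44, adjusted p = 0.008494) and week 0 (0.25, adjusted p = 0.0218). The first call was lost without either week 0 library, week 3 replicate 1 or GS cells replicate 1, and the second without any single library of week 0 or GS cells. Cd70, the ligand of CD27, passed the limit through week 3 alone, with 1.93 and 1.65 FPKM there and 0 to 0.332 in the other 8 libraries. It rose at week 3 (limma log2 fold change 1.27, SE 0.10, adjusted p = 0.0002575) and was 1.13 lower in GS cells than at week 3 (adjusted p = 0.0004479). The GS cell level exceeded week 0 by 0.27, a call lost in 7 of 15 alternatives, among them leaving out any library of week 0, week 2 or GS cells. Tnfsf13b (BAFF) ranged from 0.423 to 2.27 FPKM and passed no test (F test over the 5 groups, adjusted p = 0.09666).

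Of the 5 death domain receptors 4 rose at week 1, where 36.3% of all genes were called higher. Fas (ENSMUSG00000024778.12, chromosome 19, 34290666 to 34327772, plus strand), the receptor of FAS ligand, had 0.301 and 0.123 FPKM at week 0, 21.6 and 18.2 in week 1, 2.96 and 3.69 in week 2, 3.09 and 3.51 in week 3, and 1.29 and 1.45 in GS cells. Every cultured library was above week 0, and weeks 2 and 3 overlapped. Fas rose at week 1 (limma log2 fold change 4.11, SE 0.15, adjusted p = 3.919e-08) and fell at week 2 by 2.27 (adjusted p = 9.707e-06). GS cells were 0.86 below week 3 (limma, adjusted p = 0.00628) and still 0.97 above week 0 (adjusted p = 0.0003522).

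Tnfrsf10b (chromosome 14, 69767472 to 69784411, plus strand), the mouse death receptor of TRAIL, was expressed in every library, with 5.07 and 4.59 FPKM at week 0 and 19.7 and 19.2 in week 1. It had 12.4 and 13.0 in week 2, 10.5 and 11.1 in week 3, and 14.9 and 14.8 in GS cells. The mean at week 1 was 4.03 times that of week 0 (limma log2 fold change 1.81, SE 0.10, adjusted p = 4.749e-07), and that of GS cells 3.08 times (adjusted p = 2.022e-06). The excess of GS cells over week 3, 0.43 (limma, adjusted p = 0.01904), lost its call without any single library of either group (adjusted p = 0.0539 to 0.0879).

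Tnfrsf25 (DR3, the receptor of TL1A) rose at weeks 1 and 2. It was at 1.55 and 1.99 FPKM at week 0, 5.81 and 9.51 in week 1, 15.0 and 13.9 in week 2, 8.11 and 7.99 in week 3, and 13.6 and 13.8 in GS cells. The changes were 1.61 in week 1 (limma, adjusted p = 7.939e-05) and 0.86 in week 2 (adjusted p = 0.0061), the latter 0.55 without week 1 replicate 1. The fall at week 3 (-0.77, adjusted p = 0.02792) and the excess of GS cells over week 3 (0.70, adjusted p = 0.03833) were lost without any single library of the groups compared, and the latter also without either week 2 library. In GS cells Tnfrsf25 was 2.41 above week 0 (limma, SE 0.20, adjusted p = 5.884e-06).

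Tnfrsf1a (TNFR1), the death domain receptor of TNF, was the family's highest gene at week 0 with 34.2 and 37.4 FPKM. It had 38.9 and 67.4 in week 1, 23.0 and 26.7 in week 2, 17.0 and 19.5 in week 3, and 22.1 and 34.5 in GS cells. The 2 week 1 libraries lay far apart, and the difference from week 0 missed the threshold (limma 0.51, 95% interval -0.12 to 1.13, adjusted p = 0.1155). The fall at week 2 (-1.02, adjusted p = 0.01244) lost its call without week 1 replicate 2 (-0.63, adjusted p = 0.069) or week 2 replicate 1 (-0.91, adjusted p = 0.0678) and after rescaling to a common sum. Tnfrsf21 (DR6) had 2.96 and 2.94 FPKM at week 0, 6.68 and 6.89 in week 1, 2.52 and 2.78 in week 2, 0.201 and 0.711 in week 3, and 1.21 and 1.42 in GS cells. It rose at week 1 (limma log2 fold change 0.98, adjusted p = 0.0006635) and fell at week 2 (-1.09) and week 3 (-1.35, adjusted p = 0.001485). GS cells were 0.77 below week 0 (limma, adjusted p = 0.002599), but 0.32 above it after quantile normalization.

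All 4 decoy receptors rose at week 1 and fell at week 2, where 36.3% of all genes were called higher and 27.4% lower, respectively. Tnfrsf11b (osteoprotegerin, chromosome 15, 54250619 to 54278484, minus strand), which captures RANKL, had 0.148 and 0.121 FPKM at week 0, 8.03 and 6.48 in week 1, 0.518 and 0.313 in week 2, 0.210 and 0.486 in week 3, and 1.12 and 1.12 in GS cells. It rose by 2.86 in week 1 (limma, SE 0.14, adjusted p = 2.573e-07) and fell by 2.54 in week 2 (adjusted p = 4.58e-06). Tnfrsf11a, the signalling receptor of RANKL, stayed at 0.534 FPKM or less in all libraries.

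Tnfrsf23 (chromosome 7, 143665809 to 143685872, minus strand) and Tnfrsf22 (chromosome 7, 143634806 to 143649661, minus strand) are neighbouring genes for mouse TRAIL decoys. Tnfrsf23 had 0.250 and 0.461 FPKM at week 0, 30.6 and 38.7 in week 1, 2.95 and 1.89 in week 2, 1.24 and 3.34 in week 3, and 2.503 and 2.89 in GS cells. It rose by 4.71 in week 1 (limma, SE 0.30, adjusted p = 1.29e-06), the family's second largest estimate, and fell by 3.39 in week 2 (adjusted p = 4.565e-05). Tnfrsf22 had 1.164 and 0.777 FPKM at week 0, 9.52 and 7.89 in week 1 and 1.27 to 2.73 later, and rose by 2.301 (limma, adjusted p = 2.401e-05). Of the 50-base stretches of Tnfrsf23, 18.0% also occur in Tnfrsf22, and of those of Tnfrsf22, 27.4% occur in Tnfrsf23, Gm47486 or AC136710.2, so the separate levels of these genes are uncertain.

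Tnfrsf26, next to these genes (chromosome 7, 143607659 to 143628722, minus strand), took another course after week 1. It had 0.101 and 0.0553 FPKM at week 0, 1.49 and 2.00 in week 1, 0.311 and 0.461 in week 2, 1.68 and 1.66 in week 3, and 3.50 and 3.53 in GS cells, its highest group. It rose at week 1 (limma log2 fold change 1.34, adjusted p = 9.658e-06), fell at week 2 (-0.98, adjusted p = 0.0002212), rose at week 3 (0.95, adjusted p = 0.001502) and was 0.76 higher in GS cells than at week 3 (adjusted p = 0.003893). Tnfrsf23 and Tnfrsf26 both overlap exons of the antisense gene E230032D23Rik.

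Of the 10 tested TRAF-binding receptors 6 rose at week 1 and 2 fell, beside 36.3% of all genes higher and 44% lower. Tnfrsf12a (FN14, ENSMUSG00000023905.15, chromosome 17, 23675445 to 23677468, minus strand), the small receptor of TWEAK, had the highest level of the family. It was at 8.40 and 6.78 FPKM at week 0, 264 and 268 in week 1, 28.9 and 29.5 in week 2, 28.8 and 31.5 in week 3, and 38.9 and 33.1 in GS cells. All cultured libraries lay above week 0 and week 1 above all others. The week 1 mean was 35.02 times that of week 0 (limma log2 fold change 4.96, SE 0.12, adjusted p = 3.175e-09), and Tnfrsf12a fell at week 2 by 3.14 (adjusted p = 1.039e-06). Weeks 2 and 3 overlapped (difference 0.04, 95% interval -0.22 to 0.31). The GS cell mean was 4.74 times that of week 0 (limma log2 fold change 2.11, adjusted p = 4.757e-07). In the same comparison 9 of the 20 fibroblast and matrix markers were higher in GS cells and 7 lower (median 0.11), with sums of 1011 to 1062 FPKM against 1209 to 1413, and 15 of 16 markers of undifferentiated spermatogonia were higher; their part was not tested.

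Ltbr (chromosome 6, 125306571 to 125313885, minus strand), the lymphotoxin beta receptor, had 8.01 and 9.50 FPKM at week 0, 26.7 and 24.05 in week 1, 7.52 and 8.47 in week 2, 3.10 and 5.55 in week 3, and 9.16 and 7.93 in GS cells. It rose by 1.44 in week 1 (limma, adjusted p = 0.0002885) and fell by 1.55 in week 2 (adjusted p = 0.0004595), the week in which its ligand gene Ltb rose. The fall at week 3 (-0.79, adjusted p = 0.03429) was -0.45 without week 3 replicate 1 (adjusted p = 0.134) and also lost its call without either week 2 library. The excess of GS cells over week 3 (0.88, adjusted p = 0.02284) was 0.54 without week 3 replicate 1 (adjusted p = 0.0822) and lost its call without either GS cell library too. GS cells and week 0 overlapped (difference -0.03, 95% interval -0.52 to 0.46).

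Tnfrsf1b (TNFR2, chromosome 4, 145213463 to 145246870, minus strand) binds membrane-bound TNF. It had 0.721 and 0.723 FPKM at week 0, 9.97 and 11.2 in week 1, 4.41 and 3.93 in week 2, 3.80 and 4.32 in week 3, and 4.41 and 3.70 in GS cells. It rose by 2.75 in week 1 (limma, SE 0.13, adjusted p = 2.112e-07), fell by 1.162 in week 2 (adjusted p = 0.0001643), and was still 1.55 higher in GS cells than at week 0 (adjusted p = 7.927e-06). The last 3 groups overlapped. Tnfrsf8 (CD30, chromosome 4, 145267137 to 145315164, minus strand), an activation marker of lymphocytes, had 0.571 and 0.419 FPKM at week 0, 2.76 and 2.96 in week 1, 4.62 and 5.42 in week 2, 3.57 and 3.97 in week 3, and 2.54 and 2.33 in GS cells. It rose by 1.37 in week 1 (limma, adjusted p = 1.215e-05) and by 0.64 in week 2 (adjusted p = 0.002863). The lower level of GS cells than of week 3 (-0.48, adjusted p = 0.02998) lost its call without any single library of the 2 groups.

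Cd40, the receptor of CD40 ligand on antigen-presenting and stromal cells, had 0.337 and 1.01 FPKM at week 0, 4.44 and 4.49 in week 1, 1.1599 and 1.51 in week 2, 0.399 and 0.467 in week 3, and 0.852 and 1.21 in GS cells. It rose by 1.74 in week 1 (limma, adjusted p = 4.269e-05) and fell by 1.23 in week 2 (adjusted p = 0.0008841). The fall at week 3 (-0.70, adjusted p = 0.03578) lost its call without any single library of weeks 2 or 3. Tnfrsf9 (4-1BB) was at 2.33 and 2.19 FPKM at week 0, 3.66 and 2.05 in week 1 and 0.118 to 0.563 later, and fell by 1.49 in week 2 (limma, adjusted p = 0.0006981). Tnfrsf4 (OX40) ranged from 1.05 to 2.75 FPKM; its rise at week 1 (0.63, adjusted p = 0.01379) was 0.40 without week 0 replicate 2 (adjusted p = 0.129) and also lost its call without week 1 replicate 1 (adjusted p = 0.0517), and its fall at week 2 (-0.66, adjusted p = 0.01694) lost its call without either library of week 1 or week 2 replicate 1.

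Tnfrsf19 and Tnfrsf13c were the receptors that fell at week 1. Tnfrsf19 (TROY) had 1.73 and 1.57 FPKM at week 0, 0.135 and 0.155 in week 1, 0.473 and 0.722 in week 2, 1.89 and 1.157 in week 3, and 0.239 and 0.586 in GS cells. The fall was 1.21 on the log2 scale (limma, adjusted p = 0.0002108), but 0.36 after quantile normalization (adjusted p = 0.106). Its rises at week 2 (0.48, adjusted p = 0.04402) and week 3 (0.65, adjusted p = 0.0312) lost their calls without single libraries: the first without any of weeks 0, 1 and 2, the second without any of weeks 0 and 2 or week 3 replicate 1. The lower level of GS cells than of week 3 (-0.83, adjusted p = 0.0118) did so without week 3 replicate 1 or GS cells replicate 1. Tnfrsf13c (BAFF receptor) had 1.85 and 1.49 FPKM at week 0 and 0.146 to 0.785 in culture. It fell at week 1 by 0.95 (limma, adjusted p = 0.002808), a call lost after quantile normalization (-0.14, adjusted p = 0.533). Tnfrsf13c passed the limit of FPKM 1 through week 0 alone, so its other libraries had to lie lower. In GS cells both were below week 0 on the deposited values (-0.92 and -0.82) and above it after quantile normalization (0.12 and 0.22). Tnfrsf14 (HVEM) ranged from 0.332 to 2.23 FPKM and passed no test (F test, adjusted p = 0.2811). By the same F test 27 of the 29 genes differed between some of the groups, beside 93.8% of all genes.

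**Figure D3:**
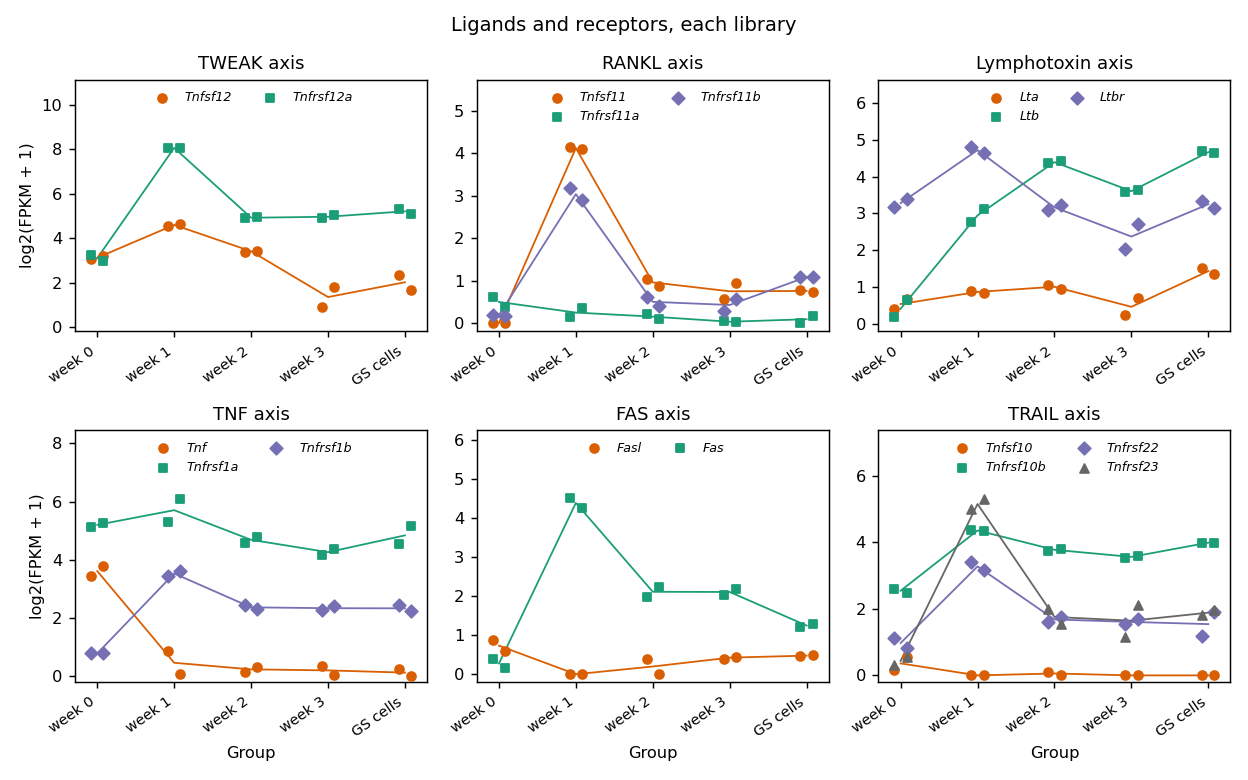
Level in each library as log2(FPKM + 1) (vertical axes) by group (horizontal axes) for the ligands and receptors of 6 signalling axes, with points for libraries and lines through the group means. In the FAS and TRAIL panels the ligand lies near the bottom in every group, whereas in the lymphotoxin panel Ltb rises as Ltbr falls at week 2.

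Ligands and receptors were next set side by side in 27 textbook ligand and receptor pairs, in which genes recur. A pair was counted where both genes were at FPKM 1 or more in both libraries of a group, which shows RNA in the same library, not in the same cell or as protein. This held for 3 pairs at week 0, 5 in week 1, 2 in week 2, 1 in week 3 and 4 in GS cells, and for 9 of the 27 in at least 1 group. The receptor alone reached the limit in 7, 13, 13, 13 and 12 pairs. At week 0 the pairs were Tnf with Tnfrsf1a, Tnfsf12 with Tnfrsf12a and Tnfsf13b with Tnfrsf13c. At week 1 they were Ltb with Ltbr, Tnfsf12 with Tnfrsf12a, Tnfsf9 with Tnfrsf9, Tnfsf11 with Tnfrsf11b and Tnfsf15 with Tnfrsf25. Ltb with Ltbr remained at weeks 2 and 3 and in GS cells. Tnfsf12 with Tnfrsf12a was also counted at week 2 and in GS cells, and Lta with both TNF receptors in GS cells only. At a limit of FPKM 0.3, chosen after seeing the data, the counts were 7, 7, 6, 6 and 7, and 13 pairs in any group. In culture, the receptors of TRAIL and FAS ligand stood beside ligand RNA of 0 to 0.0819 FPKM for Tnfsf10 and 0 to 0.398 for Fasl.

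Genes downstream of the receptors were counted from lists for each step, beside the shares of all genes called. Of 23 tested NF-kB target genes 17 rose and 3 fell at week 1, with a median log2 fold change of 1.98 against -0.14 over all genes. Of all genes 80.3% were called at week 1, 36.3% higher and 44% lower. Il6, an inflammatory cytokine, went from 0.198 ± 0.217 to 356 ± 23.3 FPKM (SD, n = 2), Ccl2, a chemokine for monocytes, from 6.16 ± 1.44 to 1406 ± 54.8, and Cxcl5, a chemokine for neutrophils, from 0.0288 ± 0.0407 to 338 ± 13.7 (limma adjusted p up to 1.421e-06). Of 17 NF-kB kinases and factors 10 rose and 3 fell (median 0.85). Nfkb1, which encodes the p50 precursor, went from 11.0 ± 1.61 to 84.4 ± 4.47 FPKM, Nfkb2, which encodes the p52 precursor, from 4.61 ± 0.958 to 25.4 ± 0.839, and the coactivator Bcl3 from 3.35 ± 1.38 to 34.98 ± 0.870. The target list holds 7 genes that stand on another of these lists.

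Of 11 tested death and adapter genes 7 rose at week 1 and 2 fell (median 0.67). Over all genes 80.3% were called (36.3% higher and 44% lower) with a median of -0.14, so the share of genes called in this list and in the next was near that of all genes. Ripk3, the kinase of necroptosis, went from 12.9 ± 3.99 to 151 ± 17.9 FPKM (limma log2 fold change 3.48, SE 0.21, adjusted p = 8.689e-07), and Casp8, the initiator caspase of the death receptors, from 2.90 ± 0.0853 to 12.1 ± 1.77 (adjusted p = 7.992e-06). Daxx fell from 108 ± 11.1 to 28.6 ± 3.79. Of 18 TRAF and ubiquitin genes 10 rose and 4 fell (median 0.51), among them Tnfaip3 (A20, an inhibitor of NF-kB signalling), which rose from 7.38 ± 0.953 to 28.4 ± 0.511, and Traf1, which fell from 5.77 ± 1.86 to 1.69 ± 1.41. Of 7 ligand-processing genes 5 rose and 1 fell. The protease gene Adam10 rose from 13.2 ± 0.568 to 35.6 ± 0.534 FPKM, Rhbdf2, a partner of the TNF-releasing protease ADAM17, from 6.25 ± 0.741 to 19.3 ± 2.03, and the intramembrane protease gene Sppl2b fell from 75.7 ± 4.74 to 11.25 ± 0.154.

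The lists differed after week 1. At week 2, 18 of the 23 NF-kB targets fell and 1 rose (median -1.79 against 0.03 over all genes, of which 28.2% were higher and 27.4% lower), with Il6 at 9.68 ± 0.642 FPKM (SD, n = 2) and Ptgs2, a prostaglandin synthase, going from 237 ± 2.55 to 7.99 ± 1.31. Of the kinases and factors 6 rose and 5 fell, and Map3k14 (NIK, the kinase of the LTBR and BAFF receptor branch of NF-kB) rose from 3.12 ± 0.0312 to 10.8 ± 0.263 (limma log2 fold change 1.51, adjusted p = 1.253e-05). At week 3, 14 targets fell and 0 rose (median -1.07), beside 10.7% of all genes lower and 10.6% higher, and no death or adapter gene was called by limma. GS cells had 13 targets higher than week 3 and 0 lower (median 0.90), beside 11.7% and 10.8% of all genes, with Map3k14 at 16.6 ± 0.293 against 8.32 ± 0.209 (adjusted p = 0.00114). Compared with week 0, GS cells had 12 targets higher and 7 lower, beside 34.7% and 45.9% of all genes. Of the death and adapter genes 3 were higher and 3 lower. Among them Ripk3 was higher at 79.6 ± 9.47 FPKM (limma adjusted p = 6.185e-06) and Daxx lower at 39.7 ± 5.19 against 108 ± 11.1. Of the kinases and factors 10 were higher and 4 lower. Relb, the partner of p52, was higher at 39.5 ± 4.76 against 8.81 ± 0.525 (limma adjusted p = 2.785e-07), and Nfkbib lower at 26.7 ± 1.99 against 102 ± 6.24.

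Family genes whose symbols fall outside the name rule were read as well. Eda2r (XEDAR) had 0.344 and 1.12 FPKM at week 0, 20.4 and 21.3 in week 1, 3.02 and 3.997 in week 2, 1.90 and 2.40 in week 3, and 1.11 and 1.88 in GS cells. It rose at week 1 by 3.69 (limma, adjusted p = 1.605e-06) and fell by 2.28 in week 2 (adjusted p = 0.0001222). Ngfr (the p75 neurotrophin receptor) fell from 12.4 and 9.68 FPKM at week 0 to 1.92 and 2.24 in week 1 (-1.96, adjusted p = 2.757e-06), and Edar from 1.41 and 1.10 to 0.0523 and 0.0365. Relt (2.35 to 8.44 FPKM) and Eda (0.650 to 1.76) were not called in any comparison.

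**Figure D4:**
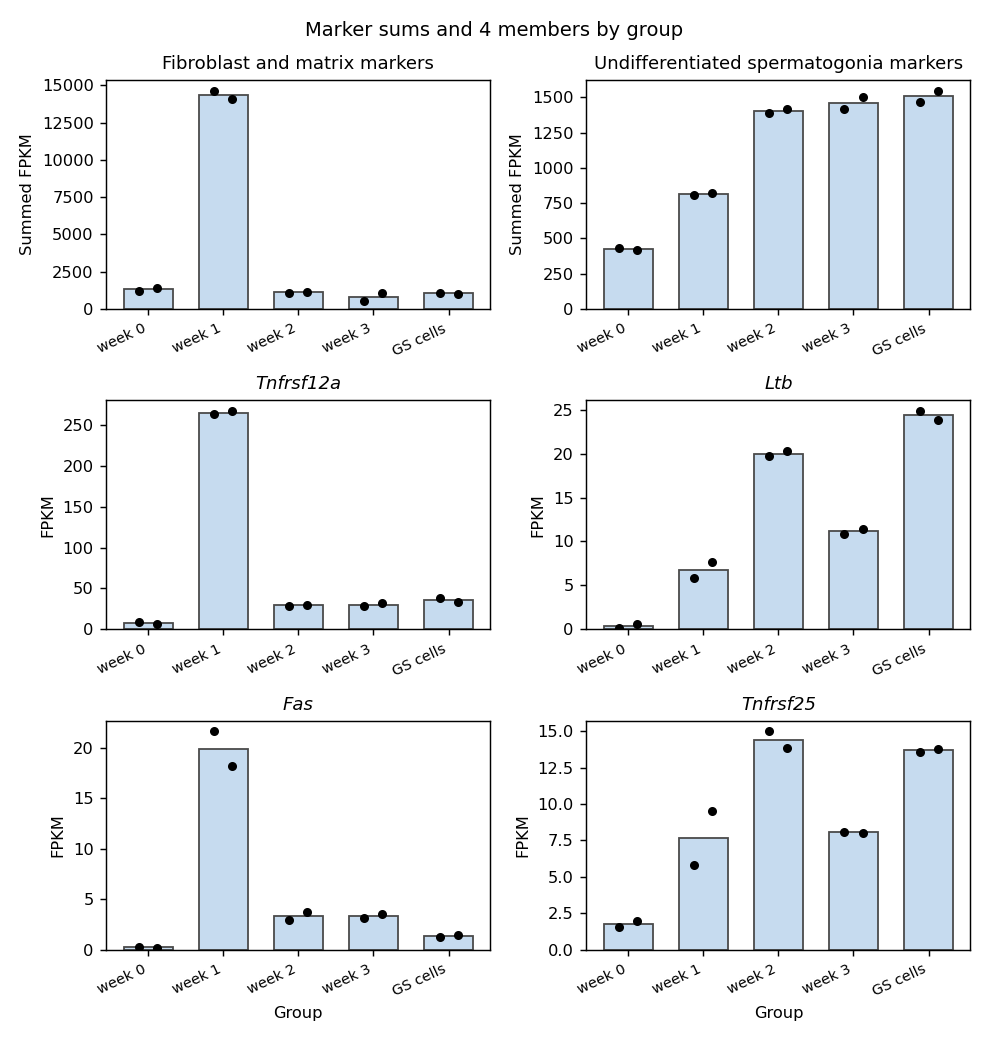
Summed FPKM of fibroblast and of undifferentiated spermatogonia markers, and FPKM of 4 family genes (vertical axes), by group (horizontal axes), where a bar shows the group mean and each point a library. Fibroblast markers, Tnfrsf12a and Fas have their highest bars at week 1, while Ltb and Tnfrsf25 are higher at week 2 and in GS cells than at week 1.

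Levels of cell type markers also changed between the groups. All 20 fibroblast and matrix markers rose at week 1 and all 20 fell at week 2, the groups between which most family genes rose and fell, and their part in those changes was not tested. Of 16 undifferentiated spermatogonia markers 14 rose and 1 fell at week 1, and 14 rose and 0 fell at week 2. From week 2 to week 3, 7 fibroblast markers fell and 0 rose, and 5 spermatogonia markers rose and 5 fell. The 2 week 3 libraries differed in marker sums: replicate 2 had the higher sums of fibroblast (1032 against 522 FPKM), smooth muscle (85.6 against 25.4) and macrophage markers (126 against 80.9). Of the 29 tested family genes 19 were higher in replicate 2 than in replicate 1 and 9 lower, a split that was not counted over all genes. Tnfsf12 (2.47 against 0.862 FPKM) and Ltbr (5.55 against 3.10) were higher there, and Tnfrsf19 (1.157 against 1.89) and Cd70 (1.65 against 1.93) lower. What part the cell composition of the libraries has in these differences was not tested.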

How the data were processed

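The 10 RNA-seq libraries were analysed from the matrix the authors deposited, which holds FPKM values for 21969 genes. Tools named in the submitters' processing notes are HISAT2 2.1.0, Bowtie2 2.3.4.1, Cufflinks 2.2.1, Cuffdiff, cutadapt 1.16 and bcl2fastq 2.17.1.14, with the build mm10. The sources used here do not give their roles, the annotation, any strand setting or the normalization. Per the labels' protocols, TRIzol RNA was made into libraries with a stranded mRNA kit. Columns were mapped to samples by their names.

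Depth was estimated from 2268 genes with a lone transcript of at least 1500 nucleotides, a fragment length of 200 being assumed; 95.82% to 99.69% of low values were whole within 0.15 of a fragment. Because most lengths depend on an unnamed annotation, no count test was run. Values were analysed as log2(FPKM + 1), a scale that understates changes of low genes, for the 15671 genes that reached FPKM 1 in 2 libraries or more. A single model over all 5 groups was fitted with limma 3.58.1 in R 4.3.3 (empirical Bayes with an intensity trend, 5 residual degrees of freedom). Tests were two-sided, p-values were adjusted by Benjamini-Hochberg over all genes within a comparison, with 0.05 as the threshold of a call. The fit was tested on simulated data. Alternatives were a pseudocount of 0.1, no filter or FPKM 0.3, quantile normalization, rescaling to a common sum, no trend, only the groups compared, a replicate block and leaving out each library. Coordinates are 1-based from GENCODE M21 (GRCm38, the assembly named mm10).

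The genes, the gene lists, the pairs and the motifs were chosen with earlier results of these data known. Every family gene was to be named, with values for those passing the filter, and of each pathway list at most the 3 called genes of largest change.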

Additional observations from a re-analysis of the deposited data

How the results depend on the processing

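Of 88 calls of family genes, 60 held in every alternative run and 28 were lost in at least 1. Without a library of the group through which they passed the limit, Tnf, Tnfrsf13c, Tnfsf15, Tnfsf18 and Cd70 were not tested. Of the 28, 3 changed sign, all in GS cells against week 0 under quantile normalization: Tnfrsf13c (0.22), Tnfrsf19 (0.12) and Tnfrsf21 (0.32). Under that scaling 22 family genes were higher and 1 lower in GS cells than at week 0, and 1 was lower at week 1 than at week 0. With no filter 5 were lower at week 1. The cause was not tested. Leaving out 1 library, with its lone partner assumed to vary like the other groups, gave these ranges of higher and lower family genes: 18 to 21 and 1 to 3 for week 1 against week 0, 3 to 4 and 17 to 19 for week 2 against week 1, 1 to 3 and 2 to 6 for week 3 against week 2, 3 to 8 and 1 to 4 for GS cells against week 3, and 12 to 14 and 4 to 6 for GS cells against week 0. For all genes the ranges were 5154 to 5660 and 4963 to 6868, 3427 to 4392 and 3633 to 4249, 755 to 1797 and 796 to 1723, 917 to 1890 and 827 to 1813, and 4991 to 5479 and 5274 to 7224. Same-numbered libraries did not deviate together (r = -0.0525 to 0.0458 over 10 pairs of groups), so the numbers were not taken as pairs. A replicate block gave 21 higher and 3 lower family genes at week 1 and lost the calls of Tnfrsf19 at week 2 (adjusted p = 0.0617) and of Cd70 in GS cells against week 0 (0.0583). With 2 libraries a group and 18.5 to 37.3 fragments at FPKM 1, changes in the lowest genes are the least certain.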
